A study of Mus musculus with 21 samples.

Results

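Hoxa2 and Hoxa3 lie next to each other at the 3′ side of the Hoxa cluster, the side that is switched on first and most anteriorly in the embryo. A further 5 transcripts that start in or beside them on the opposite strand, Hoxaas2, Hoxaas3, Hotairm1, 5730596B20Rik and Gm15050, were followed with them, which made 7 genes, found by gene symbol in both count tables, of 24594 genes listed. RNA was sequenced from the embryonic bulges that go on to build face and neck, namely pharyngeal arches 2 and 3 (PA2 and PA3), and from the pinna, the external ear that develops from PA2. Mice were kept on a mixed C57Bl/6J and CD1 background. In the genotype series, PA2 and PA3 of E10.5 embryos (E, embryonic day) were dissected from wild-type (WT) and from HIRE1del/del embryos (HIRE1del), which lack on both copies of chromosome 6 a distal regulatory region far outside the gene cluster, removed by CRISPR/Cas9 editing of zygotes. In the stage series, cells of E10.5 PA2, of the E12.5 pinna and of the E14.5 pinna were sorted from WT embryos with a reporter (Wnt1::Cre;ROSARFP) that labels the neural crest lineage red by Cre under the Wnt1 promoter. Each of the 7 groups had 3 libraries. The 2 tables were scaled separately, so levels set side by side across them are descriptions only.

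Hox genes encode homeodomain transcription factors whose combination gives cells their position along the head-to-tail axis. In the cranial neural crest, Hoxa2 sets the identity of the second arch and is needed for the pinna, and Hoxa3 acts in the third arch and the pharyngeal organs that form beside it. Hox proteins bind DNA together with the TALE homeodomain cofactors Pbx, Meis and Pknox (Prep). Long transcripts from the opposite strand are common inside Hox clusters, and Hotairm1, made beside Hoxa2, has been studied as a regulator of its neighbours.

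On GRCm38, the genome build of the counts, all 7 genes lie on chromosome 6. Hoxa2 spans chr6:52162417-52164831 and Hoxa3 chr6:52169062-52213336, both on the minus strand. On the plus strand, Hotairm1 (chr6:52156902-52162119) lies 3′ of Hoxa2, and Hoxaas2 (chr6:52165674-52169564) fills the gap between Hoxa2 and Hoxa3 and runs into the last exon of Hoxa3. Gm15050 (chr6:52172881-52174059) and 5730596B20Rik (chr6:52177498-52180851) lie within the span of Hoxa3, and Hoxaas3 (chr6:52175217-52215076) crosses the start of Hoxa3. GENCODE lists Hotairm1, Hoxaas3 and Gm15050 as antisense transcripts and Hoxaas2 as a processed transcript, whereas 5730596B20Rik, a single exon of 3354 bases, is listed as protein-coding, which goes against calling it noncoding.

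The start regions differ in composition. RefSeq (GRCm38.p6) gave a start for 4 of the 7 genes, namely Hoxa2, Hoxa3, Gm15050 and 5730596B20Rik. The 250 bases before each start are printed 5′ to 3′ on the gene's own strand for all 4 of these genes. Capitals mark matches to TGATNNAT, the joint Hox-Pbx site, or to TGACAG, the Meis site, on either strand; matches of the 2 motifs do not overlap here.
Hoxa2: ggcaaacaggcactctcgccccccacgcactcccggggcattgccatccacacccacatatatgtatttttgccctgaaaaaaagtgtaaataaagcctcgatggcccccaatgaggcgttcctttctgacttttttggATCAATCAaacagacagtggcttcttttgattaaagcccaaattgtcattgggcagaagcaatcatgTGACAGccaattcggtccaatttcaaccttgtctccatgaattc
Hoxa3: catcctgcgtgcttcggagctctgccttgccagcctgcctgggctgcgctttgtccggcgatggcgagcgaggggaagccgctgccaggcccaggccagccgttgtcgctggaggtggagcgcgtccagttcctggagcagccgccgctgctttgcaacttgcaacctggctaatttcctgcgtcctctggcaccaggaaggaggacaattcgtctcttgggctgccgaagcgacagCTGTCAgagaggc
Gm15050: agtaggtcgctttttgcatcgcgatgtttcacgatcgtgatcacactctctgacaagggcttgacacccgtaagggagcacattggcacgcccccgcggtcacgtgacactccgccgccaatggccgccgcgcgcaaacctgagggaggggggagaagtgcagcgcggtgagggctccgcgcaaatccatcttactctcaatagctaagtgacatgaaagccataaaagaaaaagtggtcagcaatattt
5730596B20Rik: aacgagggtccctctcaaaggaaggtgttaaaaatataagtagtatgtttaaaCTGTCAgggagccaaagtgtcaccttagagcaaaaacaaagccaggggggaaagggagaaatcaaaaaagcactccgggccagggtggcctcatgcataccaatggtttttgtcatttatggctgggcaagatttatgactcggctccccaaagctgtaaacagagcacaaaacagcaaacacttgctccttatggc
The Hoxa2 window is chr6:52164832-52165081 (minus strand), the Hoxa3 window chr6:52213068-52213317 (minus), the Gm15050 window chr6:52172631-52172880 (plus) and the 5730596B20Rik window chr6:52176905-52177154 (plus). Hoxa2 held 1 Hox-Pbx match, starting at -111, and 1 Meis match at -44, counted from the start site. Hoxa3 and 5730596B20Rik held 1 Meis match each, at -13 and -197, and Gm15050 held neither motif. Over all 32851 RefSeq windows of this length, 7.68% held the Hox-Pbx letters and 15.9% the Meis letters. The G and C share was 64.8% for Hoxa3, 55.2% for Gm15050, 46.4% for Hoxa2 and 45.6% for 5730596B20Rik, and the Hoxa3 window, placed before the RefSeq start, lies within the first exon of the longer Hoxa3 model that was counted and over an exon of Hoxaas3. A match to these letters is a description and not a binding site.

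Exons of these genes overlap, so part of the counts can belong to either partner. The exon lengths in the deposited tables matched a single set of GENCODE transcripts for each gene. For Hoxa2, whose own GENCODE exons hold 1775 bases, the match was reached only by adding a read-through transcript listed under another gene. Its 3 other exon blocks fall in exons of Hoxa3. By this model, which rests on the equal length alone, Hoxa2 and Hoxa3 shared 482 bases on the same strand. That is 21.3% of the 2260 bases counted for Hoxa2 and 8.01% of the 6014 bases of Hoxa3. On opposite strands, Hoxa3 shared 390 bases with Hoxaas2 (24.9% of the 1567 bases of Hoxaas2), 297 with Hoxaas3 and 292 with 5730596B20Rik (8.71% of its bases). Hoxaas3 shared 300 bases with the read-through part of Hoxa2 and 586 with Hoxa7. Hotairm1 and Gm15050 shared no exon base with any of the other 6. The exons of Gm15050 and most of 5730596B20Rik lie in an intron of Hoxa3. Where strand is not kept, unspliced Hoxa3 RNA there could be counted for them, which was not tested.

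**Figure D1:**
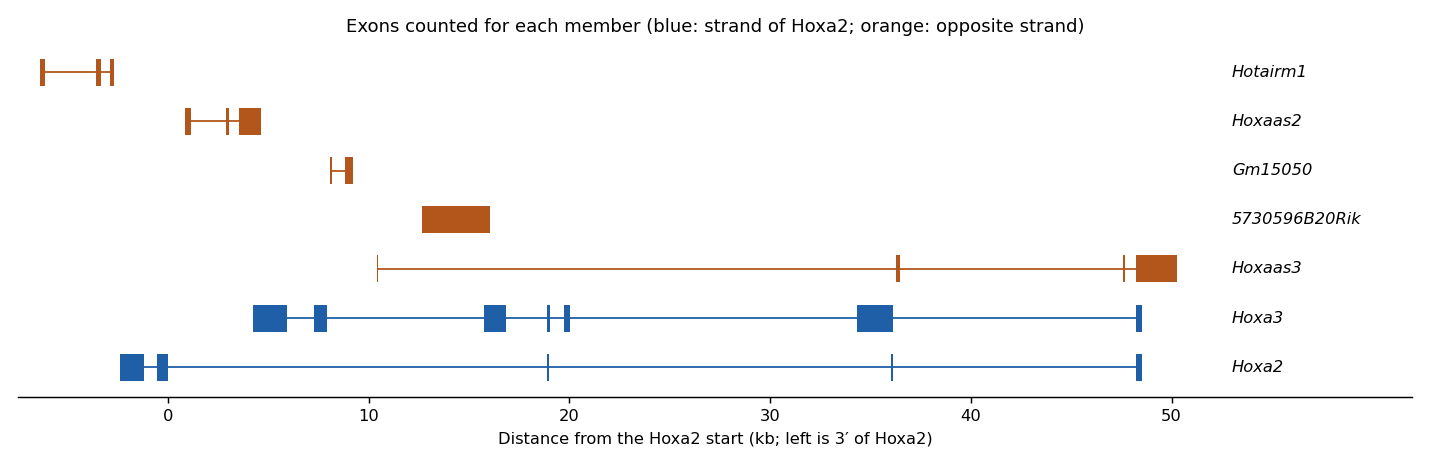
Exons counted for each of the 7 genes against distance from the Hoxa2 start in kilobases, as boxes joined by lines for the span, with genes on the strand of Hoxa2 in blue and those on the opposite strand in orange. Hoxaas2 meets the 3′ end of Hoxa3, Gm15050 lies between Hoxa3 exons, 5730596B20Rik runs into one, and Hotairm1 stands apart to the left.

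Whether the counts keep the strand was read from other genes of the genome. In 70 gene pairs, at least 90% of the exon bases of one gene lie within exons of a gene on the opposite strand, so a count that ignores strand gives both the same number of counts per base. In the genotype table, 27 pairs had a host with at least 1 count per base, and the median ratio of nested to host counts per base was 0.959 (quartiles 0.362 and 1.20), with 12 pairs between 0.5 and 2 and 5 below 0.1. In the stage table, 21 such pairs had a median of 0.00223, with 4 between 0.5 and 2 and 15 below 0.1. Medians of single libraries were 0.728 to 0.991 in the arch libraries and 0 to 0.00656 in the stage series, so the ranges did not overlap. By these medians, sense and antisense reads were mostly not kept apart on shared bases in the genotype table, and mostly were in the stage table.

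**Figure D2:**
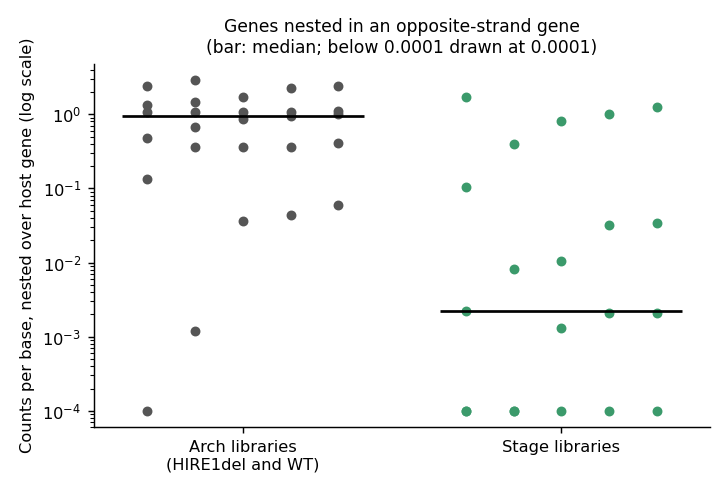
Ratio of counts per exon base of a nested gene to those of its opposite-strand host, on a log axis, for each gene pair in the arch libraries (27 pairs) and in the stage libraries (21 pairs); bars are medians. Arch pairs have a median of 0.959 with a wide spread, and 15 of the 21 stage pairs lie below 0.1.

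All 21 libraries held 25.8 to 49.1 M counts, and the value of 3 counts, taken as the floor, was 0.0631 to 0.117 CPM (counts per M counts of a library). Of the 7 genes, 6 passed the filter of 1 CPM in 2 libraries of the genotype series and 5 passed in the stage table; Hoxaas3 passed in neither, and 5730596B20Rik and Gm15050 passed in the genotype table through PA3 alone. In the stage table Gm15050 needed the pinna libraries to pass. The labels name all samples cranial neural crest cells. Crest and mesenchyme markers (7 of 7 seen) summed to 994 to 1143 CPM in PA2, 616 to 842 CPM in PA3 and 1575 to 3941 CPM in the stage libraries. In the genotype libraries, all 3 erythroid markers were also present, at a sum of 1233 to 2597 CPM in PA2 and 9784 to 19514 CPM in PA3, as were the 4 epithelial markers (161 to 200 CPM in PA2, 334 to 523 CPM in PA3) and the 3 endothelial markers (193 to 228 CPM). The stage libraries held at most 6.83 CPM of erythroid and 20.6 CPM of epithelial markers. In these bulk samples, fewer cells of a type and less RNA per cell cannot be told apart. Where nothing says that libraries came from separate litters, p-values measure only the spread between these libraries.

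The first comparison asked what the loss of HIRE1 does to each gene in PA2. Of the 6 tested genes, 5 were called lower (Hoxa2, Hoxa3, Hoxaas2, Hotairm1 and Gm15050), where 0.320% of all 14383 genes tested were. Of these calls, that of Hoxa3 cannot be told apart from the loss of Hoxaas2 or Hoxa2 on shared bases, and that of Gm15050 rests on few counts. The median log2 fold change of the 6 was -2.98, against -0.01 over all genes. Hoxaas2 kept the smallest share of its WT mean among these 5, 1.92%, while Hoxa3 kept 8.40%, Hoxa2 kept 7.49%, Gm15050 18.1% and Hotairm1 20.6%.

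Hoxaas2 stood at 15.8, 18.0 and 18.8 CPM in the WT libraries of PA2 and at 0.301, 0.156 and 0.554 CPM in the HIRE1del libraries, from 4 to 15 counts a library. The groups were far apart, with a log2 fold change of -5.67 ± 0.24 (SE; quasi-likelihood test of edgeR, adjusted p = 2.22e-08). Hoxa2 read 73.4, 77.2 and 84.2 CPM in WT and 5.75, 4.75 and 7.09 CPM in HIRE1del. All 3 HIRE1del libraries lay far below the lowest WT library, and the log2 fold change was -3.74 ± 0.12 (edgeR, adjusted p = 1.56e-09). Hotairm1, from the other flank of Hoxa2, went from 2.75, 2.10 and 3.73 CPM to 0.864, 0.312 and 0.591 CPM. Its groups did not overlap either, and its log2 fold change was smaller, -2.27 ± 0.31 (edgeR, adjusted p = 0.00377).

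The share left differed among the genes around Hoxa2. After adding 0.5 CPM, the log2 ratio of Hotairm1 to Hoxa2 rose from -4.58 ± 0.29 (SD, n = 3) in WT to -2.56 ± 0.32 in HIRE1del, 4.04-fold, with no overlap between groups (exact two-sided permutation test, p = 0.1, adjusted p = 0.15 over the 18 ratios compared). With 3 against 3 libraries, 0.1 is the smallest p this test can give. Hotairm1 in HIRE1del stood at 0.312 to 0.864 CPM, close to the 0.5 CPM added, so the 4.04-fold size depends on that constant. Without a constant, Hotairm1 kept 20.6% of its WT mean and Hoxa2 7.49%, a smaller gap. For Hoxaas2 to Hoxa2 the log2 ratio went the other way, from -2.13 ± 0.06 to -2.94 ± 0.08 (exact permutation p = 0.1), but its sign hung on the added constant, with a change of -1.70 at 0.1 CPM and 0.30 at 2 CPM.

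Hoxa3 was low in PA2 to begin with, at 3.68, 3.02 and 3.54 CPM in WT, and stood at 0.564, 0 and 0.296 CPM in HIRE1del (log2 fold change -3.54 ± 0.40, edgeR, adjusted p = 0.000544). Bases shared with Hoxaas2 limit this call. At the mean density of Hoxaas2 and with no strand kept, the 390 shared bases alone would hold 4.36 CPM in PA2 WT. That is 128% of all counts listed for Hoxa3 there, so this estimate is too high and the true share is not known. Taking off that share leaves too few counts for any call by construction (adjusted p = 0.332). Without strand, a loss of Hoxa3 RNA in PA2 cannot be told apart from the loss of Hoxaas2. The 482 bases that Hoxa3 shares with Hoxa2 on the same strand were not taken off. On those bases, a loss of Hoxa3 RNA cannot be told apart from the fall of Hoxa2 either. Of them, 297 also lie in an exon of Hoxaas3, which had 0, 0 and 1 counts in PA2 WT. How many reads fell on the shared bases was not tested.

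Gm15050, in an intron of Hoxa3 and with no exon base in common with the other 6, read 0.620, 0.772 and 0.677 CPM in WT and 0.0376, 0.0779 and 0.259 CPM in HIRE1del. Without strand, its counts may include unspliced Hoxa3 RNA, which was not tested. Groups did not overlap, but the counts were few (16 to 22 against 1 to 7), and the call (log2 fold change -2.41 ± 0.42, edgeR, adjusted p = 0.0205) was lost when WT replicate 2 or 3 or HIRE1del replicate 1 or 2 was left out (adjusted p = 0.0759 to 0.113). 5730596B20Rik had 0 to 5 counts in every PA2 library, near or below the floor, so a difference was not detectable at this depth. Hoxaas3 had 0, 0 and 1 counts in WT and 0, 0 and 2 in HIRE1del. Neuronal markers (4 genes) summed to 24.1 to 27.3 CPM in PA2 WT and to 14.47 to 20.7 CPM in PA2 HIRE1del, and their part in these differences was not tested; neural tube markers overlapped (11.02 to 15.4 and 11.46 to 12.4 CPM), with Sox1 at 0 in all 6 libraries.

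**Figure D3:**
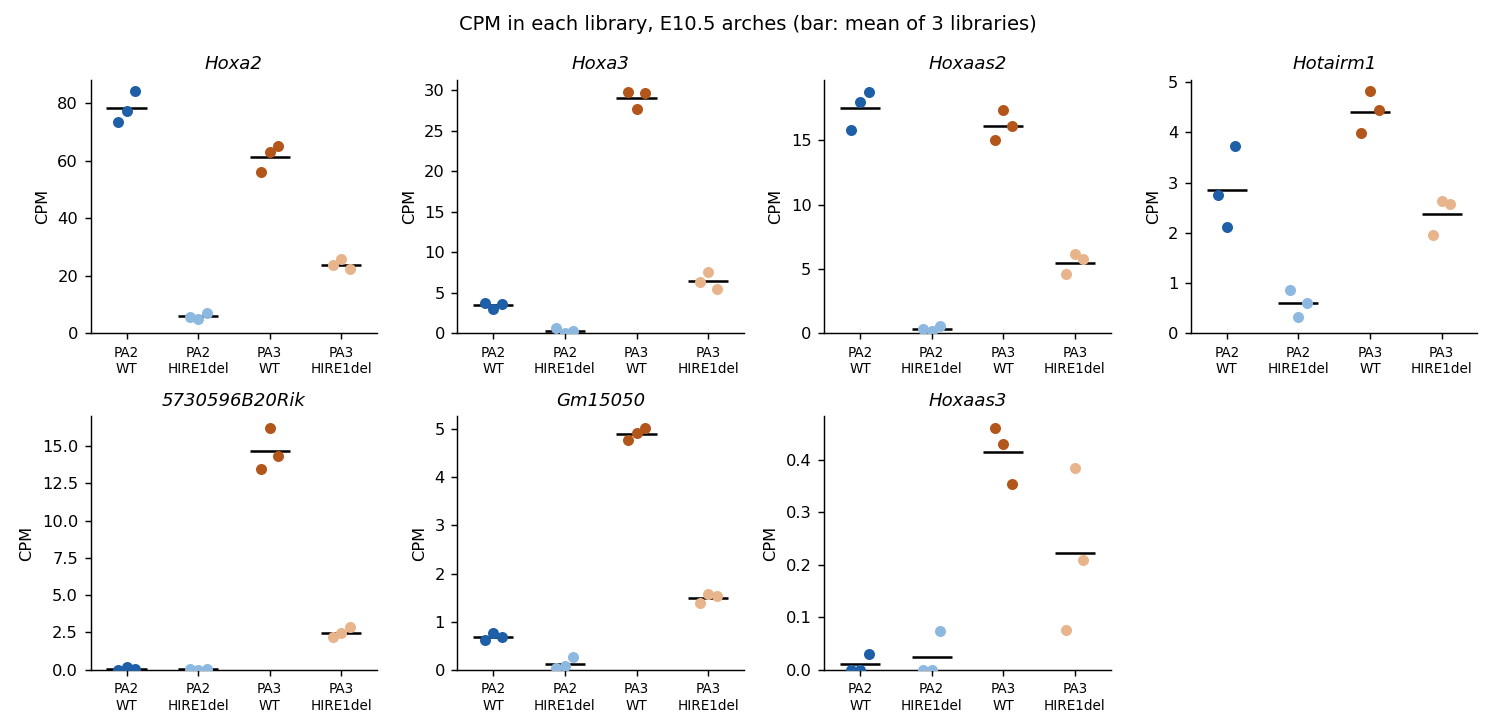
CPM of each of the 7 genes in every arch library (points; 3 per group) with the group mean as a bar, each panel on its own linear axis from 0. HIRE1del libraries lie below WT libraries of the same arch in both arches for Hoxa2, Hoxa3, Hoxaas2, Hotairm1 and Gm15050; 5730596B20Rik and Hoxaas3 are near 0 in PA2.

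In PA3 the loss of HIRE1 left a larger share of the WT mean for 5 of the genes than in PA2. Of the 6 tested, 5 were again called lower, where 0.160% of all genes were, with a median log2 fold change of -1.63 against 0.00 over all genes. The called genes were Hoxa2, Hoxa3, Hoxaas2, 5730596B20Rik and Gm15050. Hotairm1 was not called: it read 3.98, 4.82 and 4.44 CPM in WT and 1.95, 2.62 and 2.57 CPM in HIRE1del, groups that do not overlap, with a log2 fold change of -0.89 ± 0.26 (95% interval -1.40 to -0.37, edgeR, adjusted p = 0.305).

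In PA3, 5730596B20Rik kept 17.0% of its WT mean, Hoxa3 22.1% and Gm15050 30.5%, against 34.0% for Hoxaas2, 38.8% for Hoxa2 and 53.9% for Hotairm1. Hoxa3 went from 29.8, 27.6 and 29.7 CPM to 6.29, 7.55 and 5.39 CPM (log2 fold change -2.18 ± 0.24, edgeR, adjusted p = 0.00116). With the share of bases shared with opposite-strand partners taken off, its log2 fold change was -2.30 (edgeR, adjusted p = 0.00828), and Hoxaas2 at its mean density would supply 13.8% of the Hoxa3 counts in PA3 WT. The 482 bases shared with Hoxa2 on the same strand were not taken off. 5730596B20Rik moved with it, from 13.5, 16.2 and 14.3 CPM to 2.17, 2.45 and 2.85 CPM (log2 fold change -2.55 ± 0.24, edgeR, adjusted p = 0.000251). Most of its exon lies in an intron of Hoxa3, as do the exons of Gm15050. Without strand, the counts of these genes may include unspliced Hoxa3 RNA. Gm15050 fell from 4.78, 4.93 and 5.02 CPM to 1.38, 1.57 and 1.53 CPM (log2 fold change -1.71 ± 0.25, edgeR, adjusted p = 0.0123), a call lost in 4 of the 6 fits that left out 1 PA3 library, namely replicate 1 or 2 of either group (adjusted p = 0.0505 to 0.0795).

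Hoxa2 stood at 56.1, 63.0 and 65.1 CPM in PA3 WT and at 23.7, 25.6 and 22.1 CPM in HIRE1del (log2 fold change -1.36 ± 0.11, edgeR, adjusted p = 5.04e-05). Hoxaas2 went from 15.0, 17.3 and 16.1 CPM to 4.60, 6.12 and 5.74 CPM (log2 fold change -1.56 ± 0.16, edgeR, adjusted p = 0.000867). Their ratio overlapped between the groups in PA3, with a change of -0.14 on the log2 scale (exact permutation p = 0.4). Hotairm1 against Hoxa2 rose 1.48-fold in PA3, and Hoxaas2 against Hoxa3 1.54-fold, both with groups apart and an exact permutation p of 0.1, the smallest possible. The ratio of 5730596B20Rik to Hoxa3 overlapped between WT and HIRE1del (log2 difference -0.24, exact permutation p = 0.3). Gm15050 against Hoxa3 was 1.59-fold higher in HIRE1del, a ratio added after the values were seen (exact permutation p = 0.1). The 1.59-fold size depends on the 0.5 CPM added, since Gm15050 stood at 1.38 to 1.57 CPM in HIRE1del. Without a constant, Gm15050 kept 30.5% of its WT mean and Hoxa3 22.1%, a smaller gap. Hoxaas3, the transcript over the Hoxa3 start, had 12, 12 and 11 counts in PA3 WT and 2, 11 and 6 in HIRE1del, and overlapped.

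**Figure D4:**
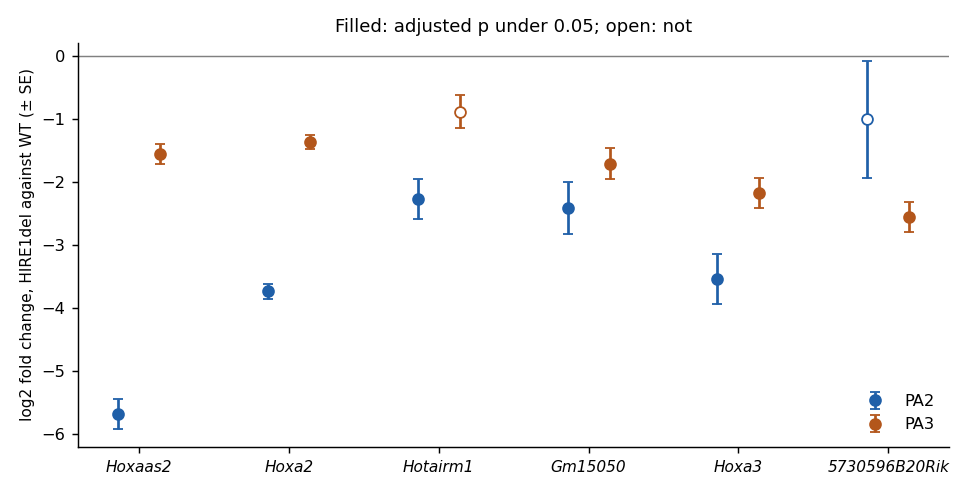
Log2 fold change of HIRE1del against WT in PA2 (blue) and PA3 (orange) for the 6 genes tested, with SE as bars; filled points have an adjusted p under 0.05. Hoxaas2 and Hoxa2 show the widest gaps between the arches, and the open points are Hotairm1 in PA3 and 5730596B20Rik in PA2.

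Whether the loss differed between the arches was tested by the interaction of genotype and arch. It was called for 2 of the 6 genes, Hoxa2 and Hoxaas2, where 0.0487% of all genes were called (7 of 14383). For Hoxa2 the fitted difference of the log2 fold changes, PA2 minus PA3, was -2.37 ± 0.16 (edgeR, adjusted p = 1.56e-05). For Hoxaas2 it was -4.11 ± 0.30 (edgeR, adjusted p = 2.89e-05). The other 4 were not called, and their 95% intervals were wide: -2.19 to -0.58 for Hotairm1, -2.34 to -0.38 for Hoxa3, -1.67 to 0.26 for Gm15050 and -0.81 to 3.91 for 5730596B20Rik.

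Between the arches of WT embryos, Hoxa3, 5730596B20Rik and Gm15050 were called higher in PA3, where 19.1% of all genes were, and Hoxa2 was called lower. Nothing is read from this count, because 5730596B20Rik and Gm15050 passed the filter through PA3 alone; both were also called with no filter (edgeR, adjusted p = 3.06e-10 and 6.46e-07). 5730596B20Rik had 0, 0.175 and 0.0616 CPM in PA2, from 0 to 5 counts a library, against 13.5 to 16.2 CPM in PA3, so the size of its fitted difference is poorly known. Hoxa3 differed by 3.09 ± 0.25 and Gm15050 by 2.82 ± 0.27 on the log2 scale (edgeR, adjusted p = 1.96e-06 and 5.60e-06). Part of the Hoxa3 counts of PA2 may belong to Hoxaas2 or Hoxa2, as given above. Hoxa2 was slightly lower in PA3 (log2 fold change -0.35 ± 0.10, edgeR, adjusted p = 0.0153), and this call was lost without PA2 replicate 3 or PA3 replicate 1 (adjusted p = 0.0716 and 0.0644). Hoxaas2 overlapped between the arches (-0.12, 95% interval -0.42 to 0.18, edgeR, adjusted p = 0.583), and Hotairm1 was 0.62 higher in PA3 without a call (95% interval 0.12 to 1.13, edgeR, adjusted p = 0.0765), but was called without PA2 replicate 3 (adjusted p = 0.0386), with limma-voom (0.036) and in a fit of these 6 libraries alone (0.0489). Hoxaas3 had 0 to 1 counts in PA2 and 11 to 12 in PA3.

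Crest marker sums were lower in every PA3 library than in any PA2 library, and erythroid and epithelial sums were higher. So were the neuronal (14.47 to 27.3 CPM in PA2, 44.1 to 134 CPM in PA3) and neural tube sums (11.02 to 15.4 and 22.9 to 41.7 CPM). Markers within a sum did not all move together. In WT, mean Tfap2a (7.67 and 8.45 CPM) and Tfap2b (21.2 and 24.0 CPM) were higher in PA3. The other crest markers, Prrx1, Twist1, Pdgfra, Dlx2 and Dlx5, were lower there. The neural tube sum in WT was mostly Sox2 (13.4 and 31.6 CPM), with Sox1 and Pax6 under 1 CPM. The part of these markers in the arch differences was not tested. Without HIRE1, all 6 tested genes were called higher in PA3 than in PA2, where 18.7% of all genes were, with the same limit of the filter for 5730596B20Rik and Gm15050. The fold changes on the log2 scale were 4.45 for Hoxa3, 4.00 for Hoxaas2, 3.53 for Gm15050, 2.02 for Hoxa2 and 2.00 for Hotairm1, and 5730596B20Rik again stood near 0 in PA2. These arch comparisons share libraries with the genotype comparisons and are not independent of them.

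Per exon length, Hoxa2 was the most abundant of the 7 in PA2 WT, at 34.6 ± 2.4 RPKM (CPM per kilobase of exon; SD, n = 3), followed by Hoxaas2 (11.2 ± 1.0) and Hotairm1 (4.01 ± 1.14), then Gm15050 (1.25 ± 0.14), Hoxa3 (0.567 ± 0.058), 5730596B20Rik (0.0235 ± 0.0265) and Hoxaas3 (0.00432 ± 0.00748), the last pair within their spread of each other. In PA3 WT the order was Hoxa2 (27.2 ± 2.1), Hoxaas2 (10.3 ± 0.7), Gm15050 (8.90 ± 0.22), Hotairm1 (6.19 ± 0.59), Hoxa3 (4.83 ± 0.20), 5730596B20Rik (4.37 ± 0.41) and Hoxaas3 (0.174 ± 0.023), with Hoxa3 and 5730596B20Rik within about their spread. Per length counted, the antisense transcript Gm15050 stood above Hoxa3, the gene whose span holds it, in both arches. Its counts may include unspliced Hoxa3 RNA. This order also depends on the length used for Hoxa3, 6014 bases in 7 exon blocks joined from 4 transcripts. Whether all 7 blocks are transcribed in these arches was not tested, and a shorter length would raise the Hoxa3 values.

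The stage series asked how the genes change as PA2 crest cells become the pinna. From E10.5 PA2 to the E12.5 pinna, all 5 tested genes rose, where 35.0% of 13438 genes were called higher. Nothing is read from this count, because Gm15050 needed the pinna libraries to pass the filter. Over the same step crest marker sums went from 1575 to 1841 CPM to 3294 to 3563 CPM. Endothelial sums went from 6.02 to 7.82 CPM to 18.4 to 24.5 CPM and neuronal sums from 33.5 to 39.0 CPM to 22.0 to 25.5 CPM. Markers within a sum did not all move together. Mean Kdr went from 3.26 to 18.0 CPM, but Pecam1 from 2.89 to 1.70 CPM and Cdh5 from 0.914 to 1.69 CPM. Among crest markers, Pdgfra rose from 1008 to 2311 CPM while Dlx2 fell from 78.9 to 25.6 CPM. The part of these markers in the rise was not tested. Between E12.5 and E14.5 the group split: Hoxa2, Hoxaas2 and Hotairm1 fell, Hoxa3 rose and Gm15050 was not called, 4 calls in 5 where 65.7% of all genes changed in either direction. Strand was mostly kept in these counts, which sets Hoxa3 apart from Hoxaas2, but not from Hoxa2 on the 482 bases that both share on the same strand.

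Hoxa2 read 122, 126 and 128 CPM at E10.5, 202, 222 and 212 CPM at E12.5 and 164, 155 and 147 CPM at E14.5. No 2 stages overlapped, and the steps were 0.76 ± 0.06 and -0.45 ± 0.06 on the log2 scale (edgeR, adjusted p = 8.53e-07 and 5.88e-05). Hoxaas2 went from 31.0, 26.8 and 27.0 CPM through 43.4, 47.7 and 50.8 CPM to 33.0, 24.7 and 33.0 CPM, with steps of 0.74 ± 0.12 and -0.65 ± 0.11 (edgeR, adjusted p = 0.00015 and 0.000442). Its E14.5 libraries overlapped those of E10.5. Hotairm1 was low throughout, at 1.17, 1.17 and 1.08 CPM, then 1.63, 2.55 and 2.38 CPM, then 1.08, 1.16 and 1.16 CPM, with steps of 0.94 ± 0.23 and -0.95 ± 0.23 (edgeR, adjusted p = 0.0038 and 0.00334).

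Against Hoxa2, both neighbours overlapped between adjacent stages. The log2 ratio of Hoxaas2 to Hoxa2 was -2.13 ± 0.15 (SD, n = 3) at E10.5, -2.16 ± 0.09 at E12.5 and -2.35 ± 0.25 at E14.5 (exact permutation p = 0.9 and 0.3 for the steps). For Hotairm1 to Hoxa2 it was -6.26 ± 0.08, -6.32 ± 0.21 and -6.58 ± 0.12 (exact permutation p = 0.8 and 0.3). Over both steps together, its E14.5 libraries (-6.70 to -6.47) lay below its E10.5 libraries (-6.35 to -6.19), a difference that was not tested. These p-values do not show that the ratios were equal.

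Hoxa3 took another course, with 1.71, 1.68 and 2.88 CPM at E10.5, 4.01, 4.54 and 3.81 CPM at E12.5 and 5.62, 6.33 and 6.77 CPM at E14.5. It rose at each step, by 0.98 ± 0.22 and 0.60 ± 0.20 on the log2 scale (edgeR, adjusted p = 0.0019 and 0.0217), and the later call was lost without E12.5 replicate 1 or 3 or E14.5 replicate 3 (adjusted p = 0.056 to 0.081) and with total counts as the only scaling (adjusted p = 0.0575). Its log2 ratio to Hoxa2, added after the values were seen, went from -5.53 ± 0.09 at E12.5 to -4.53 ± 0.20 at E14.5, 1.99-fold with no overlap (exact permutation p = 0.1), and the bases shared by both genes enter it. Gm15050 rose at the first step, from 0.769, 0.995 and 1.24 CPM to 3.53, 3.17 and 3.74 CPM (1.79 ± 0.23, edgeR, adjusted p = 3.97e-05, and 1.20e-05 with no filter), and stood at 3.90, 2.82 and 3.02 CPM at E14.5, overlapping E12.5 (95% interval of the difference -0.51 to 0.31). Its ratio to Hoxa2, added after the values were seen, was 1.58-fold higher at E12.5 than at E10.5 with groups apart (exact permutation p = 0.1, the smallest possible). At E10.5 Gm15050 lay close to the 0.5 CPM added, so the 1.58-fold size depends on that constant. Without a constant, the E10.5 mean was 28.8% of the E12.5 mean for Gm15050 and 59.0% for Hoxa2. 5730596B20Rik had 0 to 7 counts and Hoxaas3 0 to 2 in every stage library.

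Over the whole interval from E10.5 to E14.5, 3 of 5 genes were called higher, where 42.0% of all genes were, with the same limit of the filter for Gm15050. Hoxa3 gained 1.58 and Gm15050 1.69 on the log2 scale, and Hoxa2 0.31 (edgeR, adjusted p = 2.8e-05, 3.15e-05 and 0.000543). Hoxaas2 (0.10, 95% interval -0.13 to 0.32) and Hotairm1 (-0.01, 95% interval -0.47 to 0.45) were not called, though Hoxaas2 was called higher (0.23) without E14.5 replicate 2 (edgeR, adjusted p = 0.0371). Endothelial markers summed to 6.02 to 7.82 CPM at E10.5 and to 107 to 172 CPM at E14.5. This was mostly Kdr, with means of 3.26 and 141 CPM, while Pecam1 (2.89 and 2.43 CPM) and Cdh5 (0.914 and 2.18 CPM) stayed low. Neuronal markers summed to 33.5 to 39.0 CPM and to 7.53 to 8.39 CPM, with Tubb3 falling from 31.3 to 2.21 CPM and Elavl4 rising from 3.94 to 5.86 CPM. The enzyme used to free the cells changed from trypsin to papain at E14.5. The part of markers and enzyme in the E14.5 values was not tested, and stage and enzyme cannot be told apart for that step.

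**Figure D5:**
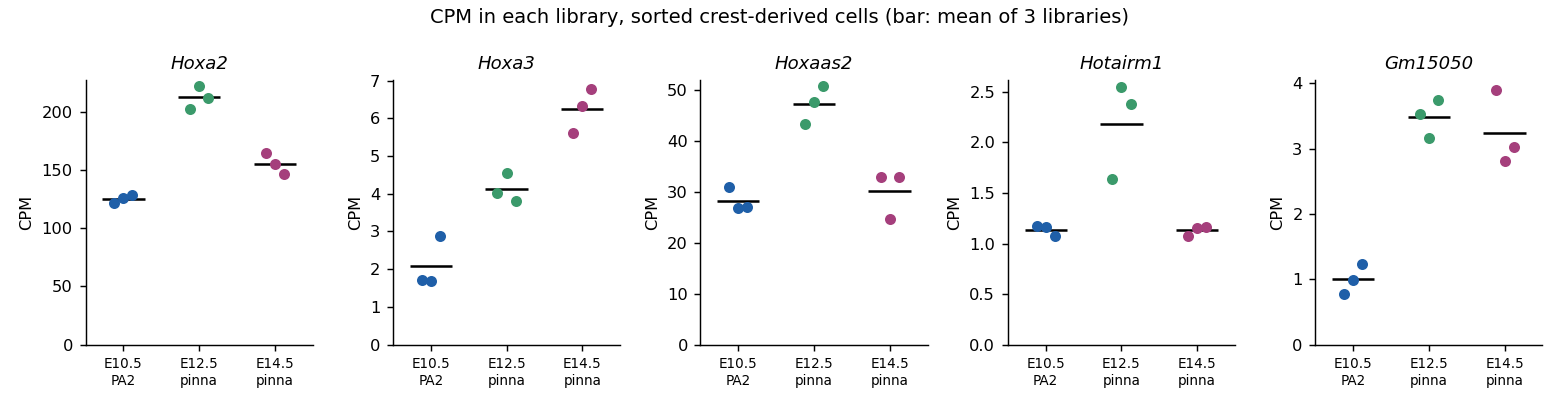
CPM of the 5 genes tested in the stage series, in every library (points; 3 per stage) with the mean as a bar, each panel on its own linear axis from 0. Hoxa2, Hoxaas2 and Hotairm1 peak at E12.5, Hoxa3 is highest at E14.5, and Gm15050 stays near its E12.5 level.

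In the sorted E10.5 PA2 cells, Hoxa2 had 125 CPM and Hoxaas2 28.3 CPM, and in dissected E10.5 PA2 of WT embryos 78.3 and 17.5 CPM. Hoxa3 had 2.09 and 3.41 CPM, and Hotairm1 1.14 and 2.86 CPM. The tables differ in strand, sorting and sequencing, so no test was made.

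Genes whose group means ran most like Hoxa2 over the 4 arch groups were Hotairm1, Cbx7 and Hoxaas2, ranked by the root mean square difference of centred group mean log2 CPM over 12731 genes (0.616, 0.753 and 0.828). Those most like Hoxa3 were Tcf24 (0.810), Cdkn2b (0.941) and Corin (1.11); Gm15050 would have come first at 0.765 but lay under the level limit of this ranking. Libraries and shared bases enter both patterns. Over the 3 stages, where few points make close matches easy, Peg3, Kif1b and Cplx2 were nearest to Hoxa2 of 12091 genes, with Hoxaas2 at rank 119 and Hotairm1 at rank 483, and Zfp28, Col23a1 and Celf4 were nearest to Hoxa3.

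Other genes of the Hoxa cluster and its flanks were listed for comparison. Of these 18, 5 were expressed enough to test, and 0 were called with genotype in PA2 or PA3 by edgeR, DESeq2 or limma-voom, with 1 in each arch under an unadjusted edgeR p of 0.05. Hoxa4 and Hoxa5 stood at no more than 0.644 CPM in any arch library and at 0 in every stage library.

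Among the paralogs in the Hoxb and Hoxd clusters, 2 of 4 tested genes were called lower in PA2 HIRE1del, where 0.320% of all genes were. Hoxb3, the paralog of Hoxa3, went from 12.45 ± 0.79 to 6.69 ± 0.34 CPM (log2 fold change -0.90 ± 0.10, edgeR, adjusted p = 0.000537). Its antisense transcript Hoxb3os went from 33.0 ± 1.8 to 21.3 ± 0.8 CPM (-0.63 ± 0.06, edgeR, adjusted p = 0.000105). Strand was mostly not kept in the arch counts, and exon bases shared by this pair were not examined. The 2 calls may therefore rest in part on the same reads, which was not tested. Hoxb2 was 22.3 ± 3.6 and 14.8 ± 1.7 CPM, and was not called by edgeR (adjusted p = 0.0989) or limma-voom (0.205) but was by DESeq2 (0.00304). In PA3, Hoxb3os alone of the 4 was called lower, where 0.160% of all genes were, at -0.30 ± 0.05 (edgeR, adjusted p = 0.043). It lost the call whenever 1 library of the contrast was left out (edgeR, adjusted p = 0.0701 to 0.227) and with no filter on low counts (0.0664). Across the stages, Hoxb2, Hoxb3 and Hoxb3os fell at both steps, 3 of 3 tested each time, where 33.7% and then 33.1% of all genes were called lower, and Hoxb2 went from 20.7 ± 1.6 through 10.2 ± 1.8 to 5.21 ± 0.84 CPM.

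Of 8 TALE cofactor genes tested, 2 fell in PA2 HIRE1del (0.320% of all genes), Meis2 from 450 ± 13 to 284 ± 9 CPM (log2 fold change -0.67 ± 0.05, edgeR, adjusted p = 7.92e-06) and Meis1 from 329 ± 28 to 230 ± 27 CPM (-0.51 ± 0.10, adjusted p = 0.0359), and 0 were called in PA3 by edgeR, DESeq2 or limma-voom, with 3 under an unadjusted edgeR p of 0.05. The Meis1 call was lost in 5 of the 6 fits that left out 1 library (adjusted p = 0.06 to 0.202). For Meis2 the interaction of genotype and arch was called (-0.62 ± 0.07, edgeR, adjusted p = 0.00151), as it was for Hoxa2 and Hoxaas2.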

How the data were processed

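Embryonic tissue was sequenced in 12 libraries of the genotype series (paired-end) and 9 of the stage series (single-end). The authors deposited raw counts per gene, obtained with QuasR and Rhisat2 on GRCm38/mm10 over UCSC known genes, for reads of the opposite orientation. The submitters' processing notes name bcl2fastq 2.17 and 2.20. Arch libraries totalled 25.8 to 32.2 M counts and stage libraries 25.8 to 49.1 M, and floors cover counting error only. The labels give both an unstranded kit and a total RNA kit name, so strand was read from the counts themselves.

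The test was that of edgeR 4.0.16 in R 4.3.3 (TMM scaling, at least 1 CPM in at least 2 libraries, 1 mean per group and table, two-sided quasi-likelihood tests, Benjamini-Hochberg adjustment over all genes, called under 0.05). Intervals are normal intervals from the SE. Exon models were GENCODE M21 transcript sets whose exon length equals the deposited one, for Hoxa2 with a read-through transcript of another gene added. Before log2 ratios were taken, 0.5 CPM was added to both genes, and their exact permutation p-values were adjusted over all 18. The named genes were all 7, the called genes of 3 lists (cluster neighbours, paralogs, cofactors) and the 3 genes most like Hoxa2 and Hoxa3 among genes averaging 1 log2 CPM or more; some genes of the lists are not reported here. Members and lists were chosen with earlier results of these data known, and 4 ratios were added after seeing values. DESeq2 1.42.0 and limma 3.58.1 served as alternatives. The steps were tested on simulated data.

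Whether replicate numbers pair libraries was checked from deviations from the group means. For PA2 against PA3 with genotype and number shared, r was 0.216 to 0.355 in WT and 0.167 to 0.317 in HIRE1del. The number within genotype was therefore used as a block, but in an alternative fit only. The arch, interaction and permutation tests given above did not use this pairing. Replicates differed by more than counting noise, with a chi-square per degree of freedom of 7.00 to 46.5 over 21 pairs of libraries.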

Additional observations from a re-analysis of the deposited data

Results flagged for a closer look

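The effect of losing HIRE1 differed between PA2 and PA3 for Hoxa2 and Hoxaas2 by the test of the difference itself. The fitted difference of the log2 fold changes (PA2 minus PA3) was -2.37 ± 0.16 (SE) for Hoxa2 (edgeR, adjusted p = 1.56e-05) and -4.11 ± 0.30 for Hoxaas2 (adjusted p = 2.89e-05), and the HIRE1del libraries lay below the WT libraries in both arches for both genes.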

How the results depend on the processing

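Each of the 8 counts of called genes stayed within 1.5 times under every alternative run. The ranges over fits leaving out 1 library were 4 to 5 for PA2 and for PA3, 2 to 2 for the interaction, 3 to 4 and 6 to 6 for the arches in WT and HIRE1del, and 5 to 5, 3 to 4 and 3 to 4 for the stages in the order E12.5 to E10.5, E14.5 to E12.5 and E14.5 to E10.5. Taking off the share of shared exon bases left Hoxa3 at or near 0 in PA2 WT, so that its fitted changes of 5.61 in PA2 and 7.91 for the interaction have no meaning of direction, and turned 5730596B20Rik in PA2 to 0.89 and its ratio to Hoxa3 between the arches to -0.85. In the stage table this alternative takes off too much, since strand was mostly kept there. Without 1 library, 5730596B20Rik in PA2 ranged from -1.85 to 0.13 and Hotairm1 from E10.5 to E14.5 from -0.048 to 0.029, both not called in any fit.

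With 2 CPM added, the ratio to Hoxa2 changed sign for Hoxaas2 in PA2 (0.30) and PA3 (0.013) and for Hotairm1 from E12.5 to E14.5 (0.033), and with 0.1 CPM for Hotairm1 from E10.5 to E12.5 (0.10). Leaving out 1 library, the change of ratio to Hoxa2 from E10.5 to E12.5 ranged from -0.076 to 0.064 for Hoxaas2 and from -0.13 to 0.062 for Hotairm1. Other than by the added constant or the shared bases, the cause was not tested. The replicate number as a block, and a block for the number within genotype, changed no call of the 7 genes: the block left 5 called in PA2, 5 in PA3 and 5, 4 and 3 in the stages. Same-numbered WT and HIRE1del libraries of an arch, and same-numbered stage libraries, did not all correlate, and there the number was not taken as a pairing. Depth limits 5730596B20Rik in PA2, Gm15050 in PA2 and Hoxaas3 throughout.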
